A study of Homo sapiens with 2 samples.

Results

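Tubulins, kinesins and microtubule-associated proteins were followed in Huh7 cells with and without knockdown of CD24. The members are the genes whose platform symbol is TUBA, TUBB or TUBG followed by a digit, TUBB, TUBD1, TUBE1, KIF followed by a number, KIFC1 to KIFC3, MAP1A, MAP1B, MAP2, MAP4, MAP7, MAPT, STMN1 to STMN4 or MAPRE1 to MAPRE3. By this rule 74 of the 19775 genes measured were members, on 160 of 41091 probe sets that name a single gene. They comprised 20 tubulins, 6 mitotic kinesins, 35 other kinesins and 13 microtubule-associated proteins, stathmins and end-binding proteins. The rule uses gene symbols and no measured value, although it was written with earlier results of these data known.

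Microtubules are hollow polymers of alpha- and beta-tubulin heterodimers, nucleated on rings that contain gamma-tubulin. Kinesins are motors that walk along microtubules or take apart their ends, carrying vesicles and organelles between divisions and moving chromosomes in mitosis. Microtubule-associated proteins stabilise the polymer, end-binding proteins track its growing tips, and stathmins sequester free tubulin. In hepatocytes, microtubules carry secretory vesicles and polarise the cell towards the bile canaliculus.

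Huh7 is an established human hepatocellular carcinoma cell line. The series compared a culture carrying a short hairpin RNA (shRNA) to CD24 and a culture carrying a non-target control hairpin, both stably transduced by lentivirus and grown in the same medium, each on 1 Affymetrix array. With 1 array per group no test across cultures exists, so no p-value is given and no difference has a replicate check. The labels do not say whether either culture was a single clone.

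The deposited values were log2 values centred within each probe set, so a probe set has equal and opposite values in the control and CD24 shRNA arrays. The table therefore holds differences and no levels, and no member can be ranked by abundance. The quantity given throughout is the log2 difference, CD24 shRNA minus control, averaged over the probe sets of a gene. The SD given is over probe sets of 1 gene and covers neither culture nor array. Pooled over 10523 genes with several probe sets it was 0.27, and over the 47 members with several it was 0.24. The number of arrays limits the precision.

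CD24 itself, against which the hairpin is directed, was lower after knockdown on each of its 6 probe sets (-1.37 ± 0.38, SD, 6 probe sets). The presence of hepatocyte markers could not be checked, because levels are not in the table. The 9 hepatocyte and hepatoma markers ranged from -0.94 to 0.59. The 3 neuronal markers, set beside the neuronal tubulins and microtubule-associated proteins, ranged from -0.14 to 0.19. Fibroblast and stellate markers ranged from -0.13 to 2.35 over 5 genes, with COL3A1 at 2.35 ± 1.77 (SD, 5 probe sets) and LUM at 1.12 ± 1.41 (SD, 2 probe sets). Of these probe sets, 4 of the 5 for COL3A1 and both for LUM were placed near the background. Leukocyte markers ranged from -0.37 to 0.17 and endothelial markers from -0.24 to -0.04, over 3 genes each. The part of other cell types in the results was not tested.

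Most members, like most genes, differed little between the arrays. The few larger differences, in tubulins, kinesins outside the mitotic list and EB1, pointed mainly upwards. Among these kinesins, KIF2A also acts at spindle poles. Of the 74 members 45 lay above 0, 28 below and 1 at 0, which is 60.8% above 0 against 49.4% of all genes. Their median was 0.12, against 0.00 for all genes, and 49 of them (66.2%) lay within 0.2 of 0, against 64.1% of all genes. Scaling the arrays to equal hybridisation controls shifts all differences up by 0.11, so the median of all genes becomes 0.11, and 60 members then lay above 0 and 14 below. The shift by itself raises counts above 0, here and wherever this scaling is given below. The share of all genes above 0 after it was not counted, so these counts have no background beside them. TUBB6 was the only member at least 2-fold higher, as were 0.632% of all genes, and no member was 2-fold lower, as were 0.485%. At 1.5-fold, a log2 difference of 0.585, 5 members were higher (6.76% of the members), against 2.63% of all genes. They were TUBB6, TUBA1A, KIF2A, KIF26B and MAPRE1. KIF21B was the only member 1.5-fold lower, against 2.38% of all genes. TUBB2A and KIF21A, both at 0.58, were just short of 1.5-fold.

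**Figure D1:**
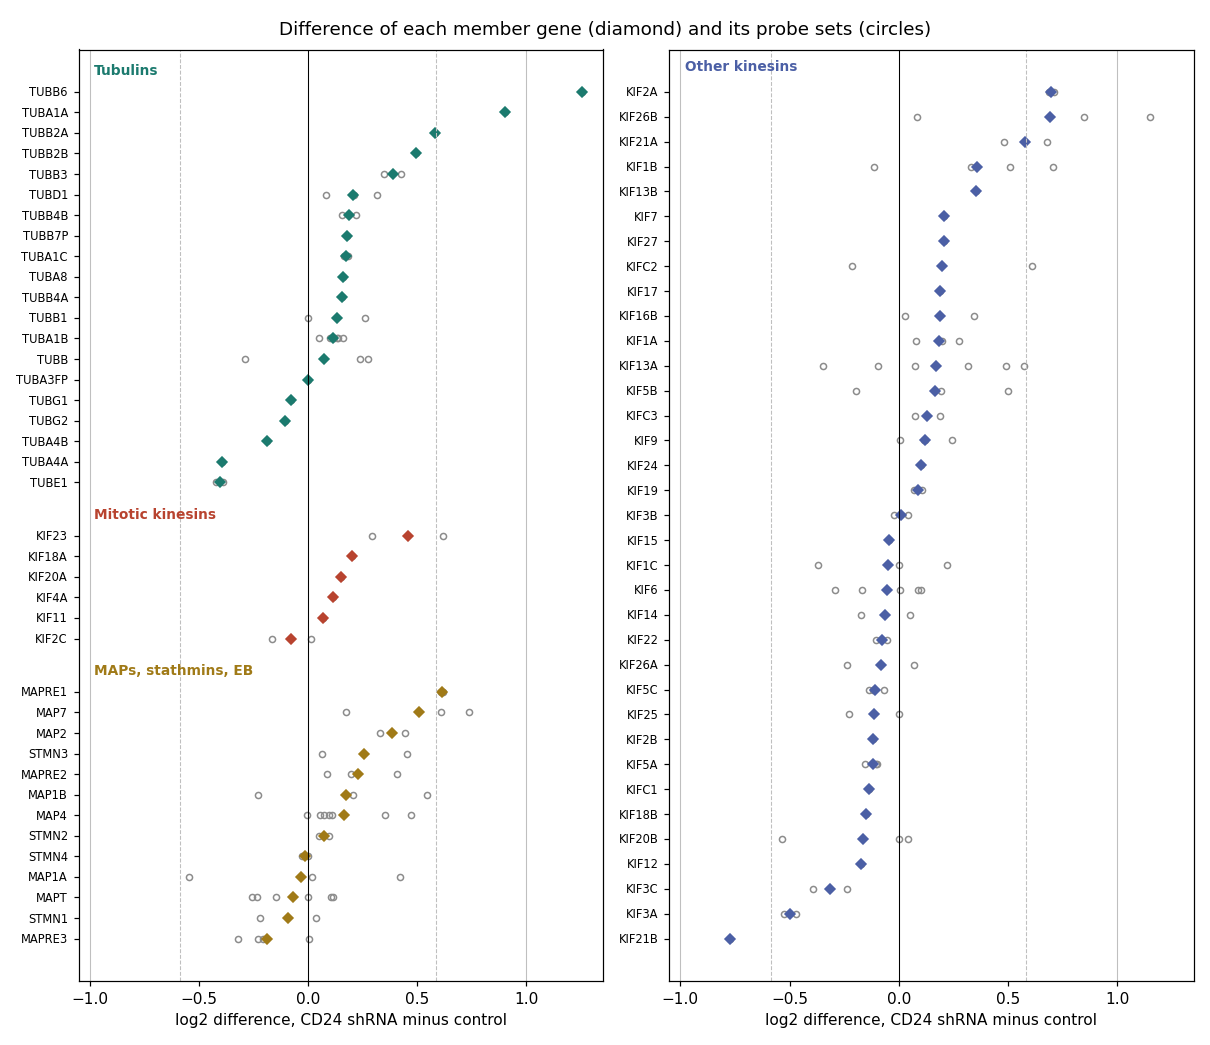
Log2 difference, CD24 shRNA minus control, of the 74 member genes (diamonds, mean over probe sets) and of their probe sets (open circles), by class. Dashed lines mark 1.5-fold and solid grey lines 2-fold. TUBB6 lies past the 2-fold line at 1.26, and the mitotic kinesins lie between -0.08 and 0.46.

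Tubulins had a median of 0.16. Of 20 tubulins, 14 lay above 0, 5 below and 1 at 0, and with scaling on hybridisation controls 17 lay above 0. All 9 beta-tubulin genes, the pseudogene TUBB7P among them, lay above 0 (median 0.19), against 49.4% of all genes. However, TUBB lay below 0 on its _at probe set. That probe set alone counts when _s_at and _x_at probe sets are left out or the largest probe set per gene is taken. TUBB2B, TUBB3, TUBB4B and TUBB7P rest on _s_at or _x_at probe sets alone. Whether these detect each other's transcripts was not tested, so the 9 genes may not be separate readings. Of the alpha-tubulins, 4 of 7 lay above 0 (median 0.12). The gamma-, delta- and epsilon-tubulins ranged from -0.40 to 0.20 (4 genes, median -0.09). No test of the difference between these groups exists with these arrays. The groups were also set after the values were seen, so their order is no result.

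TUBB6 encodes a beta-tubulin isotype with an unusual sequence among the beta class. Its centred value was -0.63 in the control and 0.63 in the CD24 shRNA array, a difference of 1.26 or 2.39-fold on 1 probe set. It was the 65th highest of 19775 genes. The same probe set was neither placed near the background nor of a kind that can match several transcripts.

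TUBA1A, an alpha-tubulin best known from developing neurons, had -0.45 in the control and 0.45 in the CD24 shRNA array. The difference was 0.90, or 1.87-fold, on 1 probe set of a kind that can match several transcripts (name ending in _s_at). Its neighbours in the genome had smaller differences. TUBA1B, TUBA1A and TUBA1C are consecutive protein-coding genes on chromosome 12 in the RefSeq table of GRCh38.p14. TUBA1B, the widely expressed alpha-tubulin, lay at 0.12 ± 0.04 (SD, 6 probe sets, from 0.05 to 0.16) and TUBA1C at 0.18 ± 0.01 (SD, 2 probe sets). The TUBA1A difference thus lay above each of the 8 probe sets of TUBA1B and TUBA1C. However, 5 of the 6 TUBA1B probe sets and both of TUBA1C have names ending in _x_at. The other TUBA1B probe set was placed near the background. Whether these probe sets detect each other's transcripts was not tested.

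TUBB2A and TUBB2B, closely related beta-tubulins that neighbour each other on chromosome 6, had like differences. TUBB2A had -0.29 in the control and 0.29 in the CD24 shRNA array (0.58, 1 probe set). TUBB2B had -0.25 and 0.25 (0.50, 1 probe set). A probe set that names both genes, and was therefore not used for either, lay at 0.55. The TUBB2B and shared probe sets have names ending in _x_at and the TUBB2A probe set does not, and whether the 3 detect each other's transcripts was not tested. TUBB3, the beta-tubulin used as a neuronal marker, lay at 0.39 ± 0.05 (SD, 2 probe sets, both with names ending in _x_at).

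TUBB, the constitutive beta-tubulin, had probe sets that disagreed. A pair with names ending in _x_at lay at 0.24 and 0.28, and the third, with a name ending in _at, lay at -0.29, so the mean of 0.07 ± 0.31 (SD, 3 probe sets) describes none of them. When _s_at and _x_at probe sets were left out, 3 of the 5 beta-tubulins that kept a value lay above 0, 1 at 0 and 1 below. TUBB4B, also widely expressed, lay at 0.19 ± 0.05 (SD, 2 probe sets, both with names ending in _x_at). TUBB1, the platelet isotype, lay at 0.13 ± 0.19 (SD, 2 probe sets, 1 tied between the arrays and 1 near the background), and TUBB4A at 0.15.

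The lowest tubulins were TUBE1 and TUBA4A. TUBE1, the epsilon-tubulin of centrioles, had 0.20 in the control and -0.20 in the CD24 shRNA array, a difference of -0.40 ± 0.02 (SD, 2 probe sets) or 1.32-fold lower. TUBA4A, an alpha-tubulin of platelets and neurons, had 0.20 and -0.20 (-0.39, 1 probe set). Its neighbour TUBA4B lay at -0.19. TUBG1 and TUBG2, the gamma-tubulins of nucleation, lay at -0.08 and -0.10, and both crossed 0 to at most 0.03 when the arrays were scaled on hybridisation controls. TUBD1, delta-tubulin, lay at 0.20 ± 0.12 (SD, 3 probe sets), TUBA8 at 0.16, TUBB7P at 0.18 and TUBA3FP, a pseudogene, at 0.

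Promoter sequences of the 3 tubulins with the largest positive differences are shown for what lies just before their start sites. Each is the 150 bases before a RefSeq transcription start, 5′ to 3′ in the direction of the gene. Capitals mark CCAAT or its reverse complement in TUBB6 and TUBA1A, and TATAAA in TUBB2A. The TUBB6 window is the one of its 2 listed starts that holds CCAAT.
TUBB6, GRCh38.p14 chr18:12308091-12308240, plus strand: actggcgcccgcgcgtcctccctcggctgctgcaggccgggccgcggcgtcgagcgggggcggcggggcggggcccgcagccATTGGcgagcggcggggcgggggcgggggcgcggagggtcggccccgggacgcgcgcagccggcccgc
TUBA1A, GRCh38.p14 chr12:49189081-49189230, minus strand: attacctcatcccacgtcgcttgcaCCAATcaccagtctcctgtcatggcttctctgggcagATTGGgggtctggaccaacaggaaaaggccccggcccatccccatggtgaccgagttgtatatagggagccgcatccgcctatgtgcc
TUBB2A, GRCh38.p14 chr6:3157545-3157694, minus strand: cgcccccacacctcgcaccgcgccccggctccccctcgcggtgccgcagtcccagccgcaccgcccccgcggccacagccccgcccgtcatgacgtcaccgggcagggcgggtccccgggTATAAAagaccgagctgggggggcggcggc

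Motifs were searched on both strands of these windows for members and for all 35116 listed promoters. Of the 74 members 61 had a promoter in the table, with 88 windows because some genes have several starts. The 3 windows shown have none of the motifs searched in common. CCAAT was in 33.3% of the 24 tubulin windows and 23.5% of all windows. The GC box GGGCGG was in 50% of tubulin windows and 36.8% of all, TATAAA in 8.33% and 6.71%, and GGAATG, the core bound by TEAD factors, in 12.5% and 7.08%. In windows of mitotic kinesins, other kinesins and the microtubule-associated class, CCAAT was in 83.3%, 36.1% and 22.7%. The GC box was in 66.7%, 77.8% and 50% of them, so neither share was particular to tubulins. Each match is a description of letters only.

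The 6 mitotic kinesins differed little, with a median of 0.13 and none past 1.5-fold. In bulk RNA, a change in the share of dividing cells and a change in transcript per cell cannot be told apart. Of the 6, 5 lay above 0 and KIF2C below, and with scaling on hybridisation controls all 6 lay above 0 (median 0.24, against 0.11 for all genes). KIF23, the motor of the centralspindlin complex in cytokinesis, had -0.23 in the control and 0.23 in the CD24 shRNA array. Its difference was 0.46 ± 0.23 (SD, 2 probe sets, at 0.29 and 0.62), and the _at probe set alone was past 1.5-fold. KIF18A, which damps chromosome oscillations on the spindle, had -0.10 and 0.10 (0.20, 1 probe set). KIF20A, which acts at the cleavage furrow, had -0.08 and 0.08 (0.15, 1 probe set).

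Each mitotic kinesin except KIF23 was nearer 0 than the pooled SD between probe sets. KIF4A, a motor that binds chromosomes and the spindle midzone, had -0.06 in the control and 0.06 in the CD24 shRNA array (0.12, 1 probe set). KIF11, which pushes spindle poles apart, had -0.03 and 0.03 (0.07, 1 probe set). KIF2C, a depolymerase at centromeres, had 0.04 and -0.04 (-0.08 ± 0.13, SD, 2 probe sets, at -0.16 and 0.01). None of the 8 probe sets of these kinesins was placed near the background.

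Promoters of mitotic genes often carry a cell cycle homology region (CHR), commonly TTTGAA, near a CCAAT box. TTTGAA was found in the 150 bases before the start of 4 of the 6 mitotic kinesins, against 7.33% of all windows, and CCAAT in 5 of 6, against 23.5%. The 4 windows with TTTGAA are shown with both motifs, on either strand, in capitals.
KIF23, GRCh38.p14 chr15:69414199-69414348, plus strand: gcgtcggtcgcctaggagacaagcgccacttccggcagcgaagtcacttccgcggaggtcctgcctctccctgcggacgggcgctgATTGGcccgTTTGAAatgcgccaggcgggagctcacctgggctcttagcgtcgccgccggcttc
KIF18A, GRCh38.p14 chr11:28108157-28108306, minus strand: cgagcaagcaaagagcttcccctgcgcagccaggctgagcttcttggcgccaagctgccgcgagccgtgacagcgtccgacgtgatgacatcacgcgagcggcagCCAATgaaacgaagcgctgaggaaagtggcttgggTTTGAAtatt
KIF4A, GRCh38.p14 chrX:70289954-70290103, plus strand: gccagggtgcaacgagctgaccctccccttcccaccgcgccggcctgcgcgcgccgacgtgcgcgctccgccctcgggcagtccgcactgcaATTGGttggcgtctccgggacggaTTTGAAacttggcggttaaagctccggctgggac
KIF11, GRCh38.p14 chr10:92592980-92593129, plus strand: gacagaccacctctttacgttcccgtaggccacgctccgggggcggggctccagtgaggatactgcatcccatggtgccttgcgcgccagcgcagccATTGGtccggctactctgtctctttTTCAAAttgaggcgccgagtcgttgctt
TTTGAA lay at bases -55 to -50 from the start in KIF23, -10 to -5 in KIF18A, -34 to -29 in KIF4A and, on the other strand, -28 to -23 in KIF11. In each of the 4, CCAAT lay further upstream, and the motifs did not overlap. The 4 genes with these motifs had differences from 0.07 to 0.46. KIF20A and KIF2C, without TTTGAA, lay at 0.15 and -0.08. TTTGAA was in none of the 24 tubulin windows. It was in 2 of the 36 windows of other kinesins, those of KIF15 (-0.05) and KIF5B (0.17). In the microtubule-associated class it was in 2 of 22 windows, those of MAP1B (0.17) and MAP7 (0.51). Whether the motif goes with the difference was not tested.

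Further kinesins of cell division lay close to 0, apart from KIF2A, which also acts at spindle poles and lay at 0.70. They are KIF14, a cytokinesis motor (-0.06 ± 0.16, SD, 2 probe sets), KIF15, a spindle motor (-0.05), KIF18B, which acts on astral microtubules (-0.15), KIF20B (-0.16 ± 0.32, SD, 3 probe sets), KIF22, which binds chromosomes (-0.08 ± 0.04, SD, 2 probe sets), and KIFC1, a minus-end motor that gathers spindle poles (-0.14). The 6 without KIF2A had a median of -0.11, each within the pooled SD between probe sets of 0. With the median over probe sets 5 of them lay below 0, and with scaling on hybridisation controls 3 did. This grouping, which leaves out KIF2A, was made after the values were seen, so its side of 0 is no result. KIF20B rests on 1 probe set at -0.54, and the other two lay at 0.04 and 0.

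Mitosis genes that are not members lay on both sides. Of 26, 13 lay above 0 and 13 below, with a median of 0.00 and none past 1.5-fold, and 19 lay above 0 with scaling on hybridisation controls. TPX2, a spindle assembly factor, lay at 0.29 and CDCA8, a subunit of the chromosomal passenger complex, at 0.24. NUSAP1, a spindle microtubule protein, lay at -0.57 ± 0.45 (SD, 2 probe sets) and NUF2, of the kinetochore complex that holds microtubules, at -0.52. CENPE, a kinetochore kinesin without a KIF symbol, lay at 0.13. Of 19 DNA replication genes 15 lay below 0 (median -0.04), against 47.5% of all genes. The highest were MCM6 at 0.20 and CCNE2 at 0.11 ± 0.30 (SD, 2 probe sets). The lowest were CDT1 (-0.50 ± 0.38, SD, 2 probe sets) and MCM3 (-0.36). With scaling on hybridisation controls 11 of the 19 lay above 0.

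**Figure D2:**
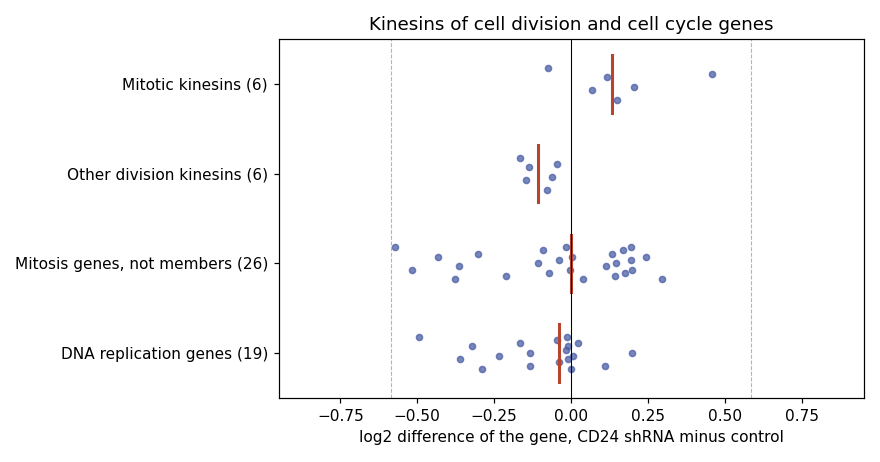
Log2 difference, CD24 shRNA minus control, of each gene (points) and the median of each group (red bars); dashed lines mark 1.5-fold and the numbers in brackets are genes. The 6 mitotic kinesins have a median of 0.13, the other division kinesins (grouped after their values were seen, without KIF2A at 0.70) -0.11, and no point passes 1.5-fold.

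The other 35 kinesins were centred near 0, with single genes apart from the rest. Their median was 0.01, with 18 above and 17 below 0, and 25 above 0 with scaling on hybridisation controls. KIF2A, a depolymerase of microtubule ends, had -0.35 in the control and 0.35 in the CD24 shRNA array. Its difference was 0.70 ± 0.02 (SD, 2 probe sets), or 1.62-fold, on probe sets that lay within 0.02 of each other. Its relatives in the kinesin-13 family lay nearer 0: KIF2B lay at -0.12, KIF2C at -0.08 and KIF24 at 0.10.

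KIF26B, an atypical kinesin of the kinesin-11 family, had -0.35 in the control and 0.35 in the CD24 shRNA array. Its mean of 0.69 ± 0.55 (SD, 3 probe sets) joins probe sets at 1.15, 0.85 and 0.08, the last placed near the background. Without that probe set it lay at 1.00. KIF26A, the other member of that family, lay at -0.08 ± 0.22 (SD, 2 probe sets).

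KIF21A and KIF21B, kinesin-4 motors that restrain microtubule growth, differed in opposite directions. KIF21A had -0.29 in the control and 0.29 in the CD24 shRNA array, a difference of 0.58 ± 0.14 (SD, 2 probe sets, at 0.48 and 0.68). KIF21B had 0.39 and -0.39, a difference of -0.77 or 1.71-fold lower on 1 probe set, and was the 223rd lowest of all genes. Of the other kinesin-4 genes, KIF7, a regulator of Hedgehog signalling at the cilium tip, and KIF27 lay at 0.21 each.

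Of the motors of kinesin-2, which drive transport in cilia, KIF3A and KIF3C lay below 0 and the others did not. KIF3A had 0.25 in the control and -0.25 in the CD24 shRNA array, a difference of -0.50 ± 0.04 (SD, 2 probe sets) or 1.41-fold lower. Its probe set at -0.47 was placed near the background. KIF3C lay at -0.31 ± 0.11 (SD, 2 probe sets), whereas KIF3B, the partner of KIF3A, lay at 0.01 ± 0.05 (SD, 2 probe sets). KIF17 lay at 0.19 on 1 probe set placed near the background. KIFAP3, the accessory subunit of the KIF3 motor and no member here, lay at 0.50 on 1 probe set, on the opposite side of 0 from KIF3A.

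Cargo motors of kinesin-1 and kinesin-3 lay within 1.5-fold. KIF5B, the widely expressed heavy chain of conventional kinesin, lay at 0.17 ± 0.35 (SD, 3 probe sets, from -0.20 to 0.50), and its neuronal relatives KIF5A and KIF5C at -0.12 ± 0.03 and -0.11 ± 0.04 (SD, 3 probe sets each). The kinesin-3 genes ranged from -0.06 to 0.36, with 5 of 7 above 0. KIF1B, a carrier of mitochondria and synaptic vesicle precursors, lay at 0.36 ± 0.35 (SD, 4 probe sets, from -0.12 to 0.71), KIF13B at 0.35 and KIF13A, an endosome motor, at 0.17 ± 0.36 (SD, 6 probe sets, from -0.35 to 0.57). The remaining kinesins not named above lay between -0.17 and 0.20. The highest of them, KIFC2 at 0.20 ± 0.58 (SD, 2 probe sets), had probe sets that disagreed. They lay at 0.61, placed near the background, and at -0.22, with a name ending in _s_at.

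Among the 13 microtubule-associated proteins, stathmins and end-binding proteins 8 lay above 0 and 5 below, with a median of 0.17, and 12 lay above 0 with scaling on hybridisation controls. MAPRE1, which encodes EB1, the main tracker of growing microtubule ends, had -0.31 in the control and 0.31 in the CD24 shRNA array. The difference was 0.61 ± 0.01 (SD, 2 probe sets), or 1.53-fold, and the names of both probe sets end in _s_at. The related MAPRE2 lay at 0.23 ± 0.16 (SD, 3 probe sets) and MAPRE3 at -0.19 ± 0.14 (SD, 4 probe sets). MAPRE3 lay below 0 on its 3 _s_at or _x_at probe sets alone, and at 0.0047 on the other, which was placed near the background. Without that probe set it lay at -0.25.

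MAP7, which recruits conventional kinesin to microtubules, had -0.25 in the control and 0.25 in the CD24 shRNA array (0.51 ± 0.29, SD, 3 probe sets, at 0.18, 0.61 and 0.74). MAP2, a stabiliser known from dendrites, had -0.19 and 0.19 (0.39 ± 0.08, SD, 2 probe sets), and both its probe sets were placed near the background. MAP4, the widely expressed stabiliser outside neurons, lay at 0.17 ± 0.18 (SD, 7 probe sets, from -0.00 to 0.47). MAP1B lay at 0.17 ± 0.39 (SD, 3 probe sets), MAPT, which encodes tau, at -0.07 ± 0.17 (SD, 6 probe sets) and MAP1A at -0.03 ± 0.49 (SD, 3 probe sets). The MAP1A probe sets ran from -0.54 to 0.42, and those at both ends were placed near the background.

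The stathmins other than STMN3 lay near 0. STMN1, the stathmin of dividing cells, lay at -0.09 ± 0.18 (SD, 2 probe sets, at 0.04 and -0.22). STMN3 lay at 0.26 ± 0.28 (SD, 2 probe sets, at 0.45 and 0.06, the latter placed near the background). STMN2 lay at 0.07 ± 0.03 and STMN4 at -0.01 ± 0.02 (SD, 2 probe sets each). Both STMN2 probe sets were placed near the background.

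**Figure D3:**
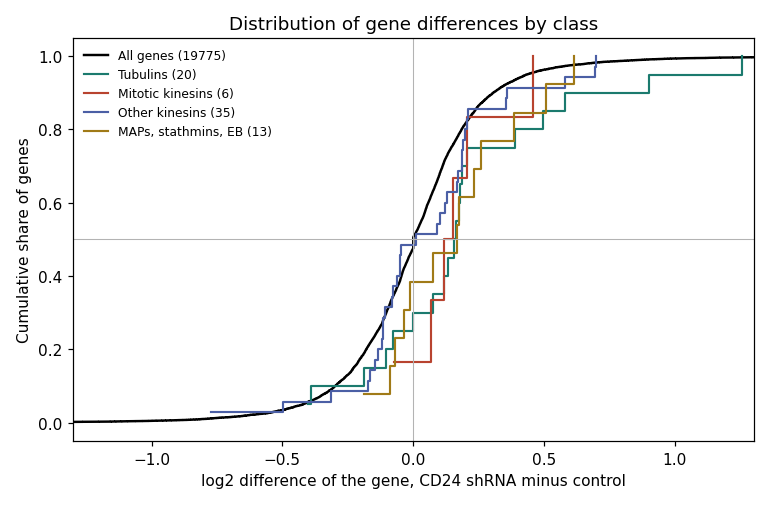
Cumulative share of genes against the log2 difference, CD24 shRNA minus control, for all 19775 genes and the 4 member classes. The curve of the 35 other kinesins crosses the middle at 0.01, and those of the tubulins, mitotic kinesins and microtubule-associated proteins at 0.16, 0.13 and 0.17.

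Other genes of the microtubule system were described by lists of their roles, written with earlier results of these data known. The background is the same: 49.4% of all genes above 0, 2.63% 1.5-fold higher and 2.38% lower. Of 26 measured genes of dynein, dynactin and kinesin light chains 22 lay above 0 (median 0.09), none past 1.5-fold. Of the 26, 13 lay within 0.1 of 0, against 7307 of all 19775 genes. BICD1, a dynein adaptor, lay at 0.43 ± 0.42 (SD, 6 probe sets) and DYNLRB2, a dynein light chain, at 0.42. DCTN3, a dynactin subunit, lay at -0.41 and KLC3, a kinesin light chain, at -0.09 ± 0.21 (SD, 3 probe sets). With scaling on hybridisation controls 25 of the 26 lay above 0.

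Of 26 measured genes of nucleation, severing and microtubule tips 18 lay above 0 (median 0.10) and 21 with the same scaling, none past 1.5-fold. SPAST, which encodes the severing enzyme spastin, lay at 0.45 ± 0.45 (SD, 2 probe sets) and CAMSAP2, which binds minus ends, at 0.40 ± 0.17 (SD, 3 probe sets). MZT1 and MZT2B, small subunits of the gamma-tubulin ring, lay at -0.47 ± 0.24 (SD, 2 probe sets) and -0.33. The larger ring subunits TUBGCP2 to TUBGCP6 lay on both sides of 0, from -0.13 to 0.17.

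Tubulin folding and modification genes showed no common direction. Of 19 folding genes 10 lay above 0 (median 0.01), and 14 with scaling on hybridisation controls. PFDN1 and VBP1, both subunits of the chaperone prefoldin, were the only genes past 1.5-fold, at 0.65 and -0.59 on 1 probe set each. CCT6A, a subunit of the chaperonin that folds tubulin, lay at 0.31 ± 0.20 (SD, 2 probe sets) and the cofactor-like TBCEL at -0.28 ± 0.24 (SD, 3 probe sets). Of 25 modification genes 11 lay above 0 (median -0.03) and 19 with that scaling, none past 1.5-fold. The glutamylase gene TTLL11 lay at 0.42 ± 0.17 (SD, 3 probe sets), AGBL5, a deglutamylase gene, at 0.23 ± 0.38 (SD, 3 probe sets), TTLL2 at -0.50 and VASH2, which encodes a tubulin detyrosinating enzyme, at -0.35 ± 0.29 (SD, 3 probe sets).

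**Figure D4:**
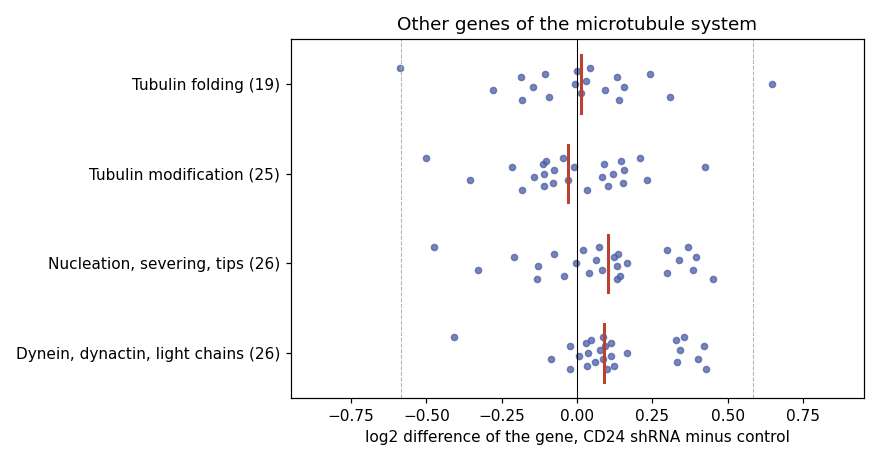
Log2 difference, CD24 shRNA minus control, of each gene (points) in 4 lists of the microtubule system, with the median of each list (red bars); dashed lines mark 1.5-fold and the numbers in brackets are genes. Only PFDN1 at 0.65 and VBP1 at -0.59, both of tubulin folding, pass 1.5-fold.

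Agreement between probe sets varied among the members. Of the 47 members with several probe sets, 26 had all of them on 1 side of 0, and 11 had probe sets more than 0.5 apart. The other 27 members rest on 1 probe set, among them TUBB6, TUBA1A and KIF21B. Of the 160 member probe sets 42.5% carry the suffix _s_at or _x_at, given to probe sets that may detect several transcripts, against 31.5% of all, and among tubulins the share was 55.9%. The digits of the deposited values placed 21.2% of member probe sets near the background, with a dimmer array below a log2 value of 4, against 26.9% of all. That share was 31.7% for the microtubule-associated proteins, stathmins and end-binding proteins and 11.8% for the tubulins, and no mitotic kinesin probe set was placed there.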

How the data were processed

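Total RNA of 2 Huh7 cultures, extracted with Trizol per the labels, was hybridised to 1 Affymetrix array each. The deposited table holds log2 values made with RMA (robust multi-array average: background correction, quantile normalisation and probe set summary), per the submitters' processing notes; the software is not given in the sources used here. The values were centred per probe set: each pair sums to 0 within 1e-06, columns have medians of 0, and values run from -2.01 to 2.01. The log2 base follows from RMA, and the lower CD24 value bears out the direction.

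Of 54675 probe sets, 62 controls were left out and 41091 with 1 symbol in GEO's platform annotation were used. All 74 members matched the RefSeq gene table (GRCh38.p14), which changed 0 symbols. Gene values are means over probe sets, calculated with pandas 2.3.3 in Python 3.11.15 and tested on simulated data. A probe set was placed near the background where the digits show a step too fine for a single-precision log2 value of 4 or more; this finds only part of the dim probe sets. No test was possible with 1 array per group.

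Members and lists were chosen with earlier results of these data known, and kinesin and tubulin families and promoter motifs after the values were seen. Genes were named by rule: the mitotic kinesins, members past 1.5-fold, the 2 highest and lowest of each class and list, members whose probe sets span over 1, and CD24. Further members were named after their values were seen. Alternatives were the median or largest probe set, leaving out _s_at and _x_at or dim probe sets, scaling on 18 hybridisation controls, and the mean over genes. A planned comparison of protein sequences was not run.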

Additional observations from a re-analysis of the deposited data

How the results depend on the processing

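Scaling on hybridisation controls adds 0.11 to every difference, the median of all genes included, and so moved the medians of all members to 0.23, tubulins to 0.27, mitotic kinesins to 0.24, other kinesins to 0.12 and the microtubule-associated class to 0.28. Relative to all genes, none of these 5 medians moved. The count of members 2-fold higher became 2 (0.915% of all genes), with TUBA1A at 1.01 beside TUBB6, and the count 1.5-fold higher became 9 (4.1% of all genes). Taking the largest probe set per gene gave 2 members 2-fold higher, KIF26B at 1.15 being the added one, 10 at 1.5-fold, and a median of 0.41 for the microtubule-associated class; by construction this choice gives each gene its widest value, with 1.53% of all genes then 2-fold and 5.7% 1.5-fold higher. Without _s_at and _x_at probe sets the tubulin median was 0, over 14 of 20 tubulins, and TUBA1A and MAPRE1 had no value. Without dim or tied probe sets the median of the other kinesins was -0.05. The median and the mean changed no median by 0.1 or more. The 1.5-fold and 2-fold lower counts stayed at 1 and 0 under the 5 alternatives tried for them. Of single members, 0 past 1.5-fold changed sign, but nearer 0 many did: 14 of 74 with scaling on hybridisation controls, 6 of 62 without _s_at and _x_at probe sets, 2 of 74 with the median, 1 of 74 with the largest and 2 of 67 without dim or tied probe sets. By more than the spread between probe sets, 20, 5, 0, 12 and 3 members moved in these settings. The 27 members with 1 probe set were given the pooled SD of all genes, 0.27, and so could not count as moved. Scaling adds the same 0.11 to every member, so its count of 20 depends on the spread between probe sets alone. No paired analysis was possible because each group has 1 sample and the labels carry no replicate numbers.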

Other observations

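Probe sets that name a member together with another gene were left out of every comparison. The pair that names TUBA3C and TUBA3D lay at 0.23 and 0.02, and the probe set shared by STMN1 and MIR3917 lay at -0.11, near the STMN1 mean of -0.09. Genes with names like those of the members but outside the rule included the beta-tubulin pseudogene TUBBP5, at 0.98 on 1 probe set, just under 2-fold higher and above each beta-tubulin except TUBB6. MAP1S, a MAP1 relative, lay at 0.31, MAP7D1, MAP7D2 and MAP7D3, relatives of MAP7, at 0.22, 0.23 and 0.21 ± 0.07 (SD, 3 probe sets for MAP7D3), and KIFBP, a kinesin-binding protein, at 0.30. The antisense genes of KIF1C, KIF9, KIF23 and KIF25 lay between -0.23 and 0.30.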
